A study of Homo sapiens with 26 samples.

Results

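The genes described here are 33 interferon-stimulated genes, a standard set of antiviral effectors, sensors and transcription factors that interferons induce in most cell types. They were followed in A549 cells, a cell line from a human lung adenocarcinoma, for up to 72 h after addition of TGF-beta 1. The set was taken by gene symbol and was chosen with earlier results of these data known. Its shares beside those of all genes are therefore given as a description. Of the 33 symbols, 31 were found as such in the deposited annotation, and IRF9 was found through its Entrez gene number under an older symbol, so that 32 genes had a probe set of their own among 19539 genes. USP18 shared its probe set with several loci and is given no value. A filter on low values, which asked for a level above the median of the array on at least 2 arrays, left 28 of the genes among 14771 tested. IFI44L, BST2, HERC5 and XAF1 did not pass it. No cells given interferon were among the samples, so the response of these genes to interferon in A549 cells was not measured here.

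Before treatment the cells spent 24 h in medium without serum. All treated groups then received porcine TGF-beta 1 at 5 ng/mL. RNA was hybridised to 26 Affymetrix HG-U133 Plus 2.0 arrays, with 3 arrays for untreated cells and for each time (0.5, 1, 4, 8, 16, 24 and 72 h), except 2 for 2 h, and with arrays numbered by experiment from 1 to 3. There was no untreated group at the later times, so treatment cannot be told apart from time in culture without serum. All 8 times were set against the same 3 untreated arrays and are not independent of each other. Levels below are log2 values on a scale where a signal of zero lies at 6.64, the floor at 5.64 and the median of every array at 7.96. Changes are log2 differences of group means with the standard error of limma, and a gene passed if its p adjusted over all 14771 genes by the Benjamini-Hochberg method was under 0.05. The offset in the deposited values makes folds of genes near zero signal too small. RNA was taken from whole cultures, so fewer expressing cells and less RNA per cell cannot be told apart.

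Genes known to follow TGF-beta 1 changed in these cultures. At 24 h SMAD7, an inhibitor of the pathway itself, was 5.79-fold higher and CDH1, the adhesion protein of epithelial cells, was 10.1-fold lower. The epithelial markers KRT8, KRT18, CDH1 and EPCAM lay above the array median in untreated cells, whereas KRT19 did not. The summed level of the 5 epithelial markers ran from 60.3 to 61.5 in untreated arrays and from 52.8 to 53.7 at 72 h. For 10 markers of immune and stromal cells it ran from 76.6 to 81.2 and from 77.2 to 77.4. Of those 10, 6 had a mean below the array median in untreated cells. The highest of the 10 means lay above the array median, at 9.25 in untreated cells and 8.37 at 72 h. PTPRC and CD14, which define leukocytes and monocytes, did not pass the filter on low values. They were at 7.30 and 7.04 in untreated cells and at 7.11 and 7.22 at 72 h, near zero signal. Of the 7 that were tested NCAM1 alone changed, and it fell by 0.87 at both 24 and 72 h. The actin 3'/5' ratio, a sign of RNA integrity, averaged 1.10 over the untreated arrays and was lower late, with averages of 1.00 for 24 h and 1.01 for 72 h. The part of RNA quality in the changes described below was not tested.

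Type I and type III interferons signal through their receptors and the kinases JAK1 and TYK2 to a complex that holds STAT2 and IRF9 and binds the interferon-stimulated response element in the promoters of its targets. Many of these genes keep a basal level of expression without added interferon, and STAT2, IRF9, IRF7 and the RNA sensor IFIH1 are at once products and parts of the pathway. In airway epithelium the set forms the main cell-intrinsic defence against viruses. The promoters of 25 of the 33 genes were in the RefSeq promoter table (build GRCh38.p14), each running from 250 bases before to 50 bases after the start. The core of the response element, GAAA, any 2 bases and again GAAA on either strand, was present in 17 of 25 (68 percent) and in 1195 of 27305 genes of the whole table (4.38 percent). The GAS element of STAT dimers, TTCNNNGAA, was present in 8 of 25 (32 percent), against 9.38 percent of the whole table. The core stood in 9 of 14 promoters of genes that fell at 24 or 72 h and in 4 of 6 promoters of tested genes that did neither. A match describes the letters in this window and not a bound site.

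Promoters of 5 genes are shown because they carry the core and yet belong to genes with different results after TGF-beta 1. The core is in capitals (TTTC, any 2 bases and TTTC is the core on the other strand). IFIT1 (chr10:89392373-89392672, plus strand), IFIT3 (chr10:89327747-89328046, plus strand) and IFITM3 (chr11:320811-321110, minus strand) fell. IFI44 (chr1:78649539-78649838, plus strand) rose late, and ISG15 (chr1:1013247-1013546, plus strand) passed at no single time against untreated cells in the fit without the block. The mean of ISG15 was lower at 72 h too (-0.42), and whether its course differs from that of the falling genes was not tested.
IFIT1: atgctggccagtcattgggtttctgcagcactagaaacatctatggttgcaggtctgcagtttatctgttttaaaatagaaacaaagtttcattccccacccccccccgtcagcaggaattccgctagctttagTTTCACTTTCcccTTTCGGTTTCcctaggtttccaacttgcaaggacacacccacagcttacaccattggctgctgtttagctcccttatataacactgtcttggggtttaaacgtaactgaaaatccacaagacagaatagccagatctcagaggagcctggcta
IFIT3: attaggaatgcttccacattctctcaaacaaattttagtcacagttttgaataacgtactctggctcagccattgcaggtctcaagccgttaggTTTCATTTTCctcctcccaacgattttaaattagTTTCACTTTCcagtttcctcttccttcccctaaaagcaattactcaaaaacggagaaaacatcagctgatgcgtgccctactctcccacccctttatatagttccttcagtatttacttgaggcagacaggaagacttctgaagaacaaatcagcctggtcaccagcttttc
IFITM3: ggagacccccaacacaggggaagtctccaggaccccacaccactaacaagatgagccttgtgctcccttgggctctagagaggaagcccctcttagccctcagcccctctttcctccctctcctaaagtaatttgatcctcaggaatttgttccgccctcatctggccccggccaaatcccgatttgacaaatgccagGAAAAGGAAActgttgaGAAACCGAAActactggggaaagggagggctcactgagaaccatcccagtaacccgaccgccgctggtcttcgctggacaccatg
IFI44: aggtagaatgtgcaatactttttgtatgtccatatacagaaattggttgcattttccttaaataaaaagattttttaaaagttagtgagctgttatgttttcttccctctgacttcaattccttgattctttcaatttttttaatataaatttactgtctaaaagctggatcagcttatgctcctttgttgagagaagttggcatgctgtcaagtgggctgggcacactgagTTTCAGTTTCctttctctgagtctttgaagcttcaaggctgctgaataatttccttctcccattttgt
ISG15: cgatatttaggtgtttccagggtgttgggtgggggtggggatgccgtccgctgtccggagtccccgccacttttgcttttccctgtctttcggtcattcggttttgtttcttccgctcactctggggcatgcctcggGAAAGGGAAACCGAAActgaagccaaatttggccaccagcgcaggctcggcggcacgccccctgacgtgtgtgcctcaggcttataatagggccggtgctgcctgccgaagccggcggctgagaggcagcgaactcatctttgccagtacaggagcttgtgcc
The matches began at -116 and -103 from the start in IFIT1, at -156 and -122 in IFIT3, at -52 and -35 in IFITM3 and at -18 in IFI44. In ISG15 a pair of matches at -113 and -107 overlapped in 1 run of letters.

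Most of the genes that passed at the later times fell. At 0.5, 1 and 2 h none of the 28 passed in limma, where 0.135, 0.542 and 3.11 percent of all tested genes did, so that a count of 0 is near the background. At these times 1, 0 and 3 of the 28 had an unadjusted p under 0.05, among them at 2 h IFI6 (1.24, unadjusted p 0.00665, adjusted p 0.127) and IFIT2, whose arrays lay below all untreated ones (-0.85, unadjusted p 0.0128). At 4 h IRF7 alone passed, where 9.17 percent of all genes did, 6.09 percent higher and 3.08 percent lower. At 8 h 1 rose and 4 fell, 17.9 percent of the 28. This is below the 23.1 percent of all genes that passed, 11.5 percent higher and 11.6 percent lower. The falls then grew in number. At 16 h 1 rose and 10 fell, 39.3 percent of the 28, against 33.7 percent of all genes, 15.2 percent higher and 18.5 percent lower. At 24 h 1 rose and 13 fell, 50 percent of the 28, against 35.2 percent of all genes, 15.2 percent higher and 20 percent lower. At 72 h 2 rose and 16 fell, which is 18 of 28 or 64.3 percent, against 38.3 percent of all genes, 18.3 percent higher and 20 percent lower.

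**Figure D1:**
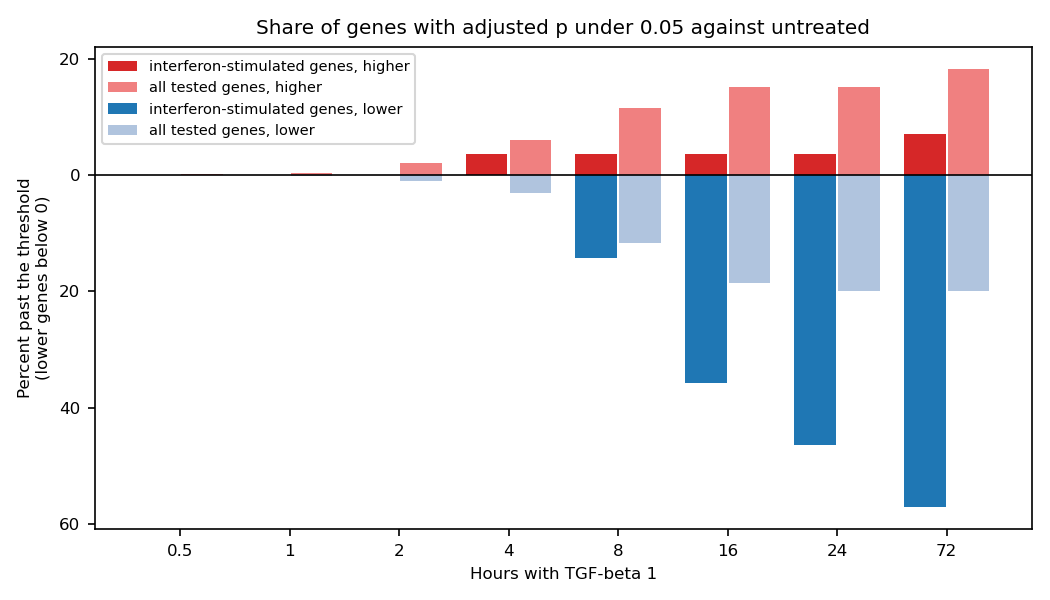
Share of genes past the threshold at each time, higher above and lower below the zero line, for the 28 interferon-stimulated genes (dark bars) and for all 14771 tested genes (pale bars). From 8 h on the lower share of the interferon-stimulated genes exceeds that of all genes, most narrowly at 8 h. Their higher share stays below that of all genes at these times.

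At 8, 16, 24 and 72 h the median change of the 28 genes was -0.23, -0.33, -0.55 and -0.87, where the median of all tested genes was -0.03, -0.04, -0.05 and -0.02. The sign was negative for 24 of the 28 at 24 h and again at 72 h. The F test of limma, which asks for any change over the 8 times, called 19 of the 28 (67.9 percent), against 47.7 percent of all genes. With the experiment as a block OAS3, IRF1 and PARP9 passed it too (adjusted p 0.0268, 0.0129 and 0.00983, against 0.114, 0.0624 and 0.0544 without), as did ISG15. Among the 19, HERC6 lost the F test call with the mean of its probe sets (adjusted p 0.184). MX2 (adjusted p 0.0329) lost it without untreated replicate 2 or 3 (0.0661 and 0.0590), 2 h replicate 1 (0.0696) or 24 h replicate 1 (0.112). The 28 genes passed for the first time at 5 different times or not at all. In the fit without the block IRF7 came first, the 4 IFIT genes followed at 8 h, and the 3 IFITM genes with IFI35, UBE2L6 and HERC6 followed at 16 h. IFIH1, MX2 and PARP9 first passed at 24 h, and ISG20, OAS1, OAS3, IRF1, IFI44 and TRIM22 at 72 h. ISG15, MX1, OAS2, OASL, STAT2, IRF9, IFI6 and IFI27 passed at no single time against untreated cells.

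**Figure D2:**
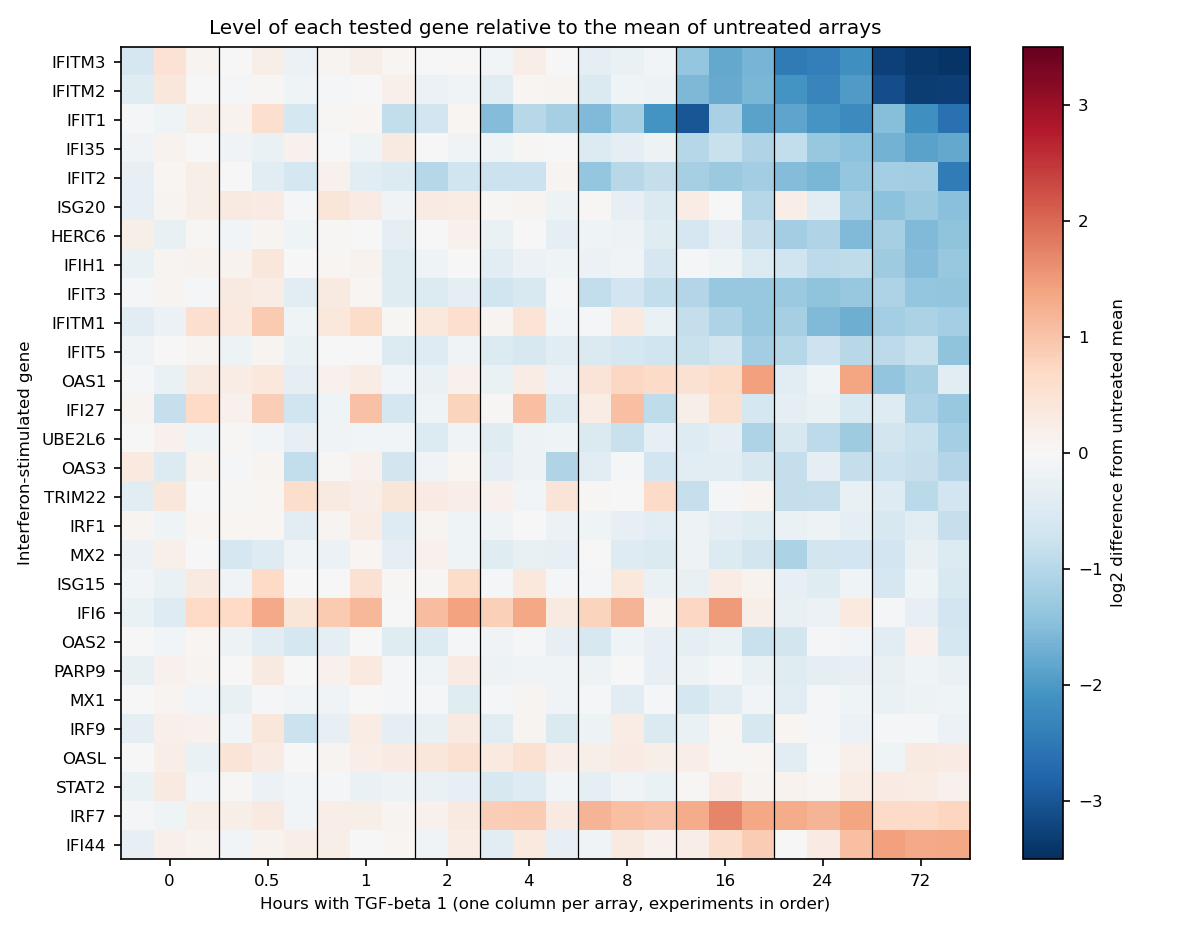
Level of each of the 28 tested genes on each of the 26 arrays, as the log2 difference from the mean of the untreated arrays, with genes ordered by their change at 72 h. Blue (lower) fills the top rows from 8 or 16 h on, IRF7 is red from 4 h and IFI44 is red at 72 h.

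IFITM1, IFITM2 and IFITM3 are small membrane proteins that block the fusion of viruses with cell and endosome membranes, and their genes neighbour each other on chromosome 11. On the deposited scale, whose offset shortens the fall of IFIT1 and other weakly expressed genes, IFITM3 and IFITM2 had the largest falls of the 28 at 24 and 72 h. IFITM3 read 10.62, 11.71 and 11.31 in untreated cells and between 10.89 and 11.45 on the 14 arrays from 0.5 to 8 h. It then read 9.86, 9.43 and 9.59 at 16 h, 8.74, 8.81 and 9.06 at 24 h, and 7.94, 7.85 and 7.79 at 72 h. From 16 h on every array lay below every untreated array, and all 72 h arrays had come down to just below the array median. The fall was 3.00-fold at 16 h (-1.58 ± 0.18, adjusted p 5.12e-07), 5.08-fold at 24 h (-2.34 ± 0.18, adjusted p 1.58e-09) and 10.2-fold at 72 h (-3.36 ± 0.18, adjusted p 4.94e-12).

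IFITM2 read 12.08, 12.88 and 12.51 in untreated cells and stayed between 11.99 and 12.66 through 8 h. Its arrays read 10.92, 10.74 and 10.90 at 16 h, 10.39, 10.17 and 10.51 at 24 h, and 9.39, 9.16 and 9.19 at 72 h. As for IFITM3, the groups no longer overlapped from 16 h on. The fall was 3.12-fold at 16 h, 4.39-fold at 24 h and 9.48-fold at 72 h (-3.25 ± 0.16, adjusted p 6.93e-13). Both genes are read by probe sets marked as cross-hybridising, and transcripts of this near-identical family cannot be separated by them. IFITM1, read by another type of probe set, was at 8.84, 9.0 and 9.80 in untreated cells and between 8.99 and 10.13 from 0.5 to 8 h. It read 8.38, 8.13 and 7.89 at 16 h, 8.06, 7.67 and 7.49 at 24 h, and 8.03, 8.12 and 8.01 at 72 h, again without overlap. Its fall was 2.78-fold at 24 h (-1.47 ± 0.25, adjusted p 7.70e-05) and 2.23-fold at 72 h (-1.16 ± 0.25, adjusted p 0.000862). At 8 h neither IFITM2 (-0.27) nor IFITM3 (-0.22) passed, but both did without untreated replicate 1 (-0.48 and -0.51, adjusted p 0.0282 and 0.0186). IFITM2 and IFITM3 fell further between 24 and 72 h, by 1.11 ± 0.16 and 1.01 ± 0.18 (adjusted p 0.000107 and 0.00121), whereas IFITM1 did not pass in that comparison. Without the 3 arrays that carry an r in the names of the deposited table, which leaves 1 array at 24 h, both lost this call (adjusted p 0.0628 and 0.104).

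**Figure D3:**
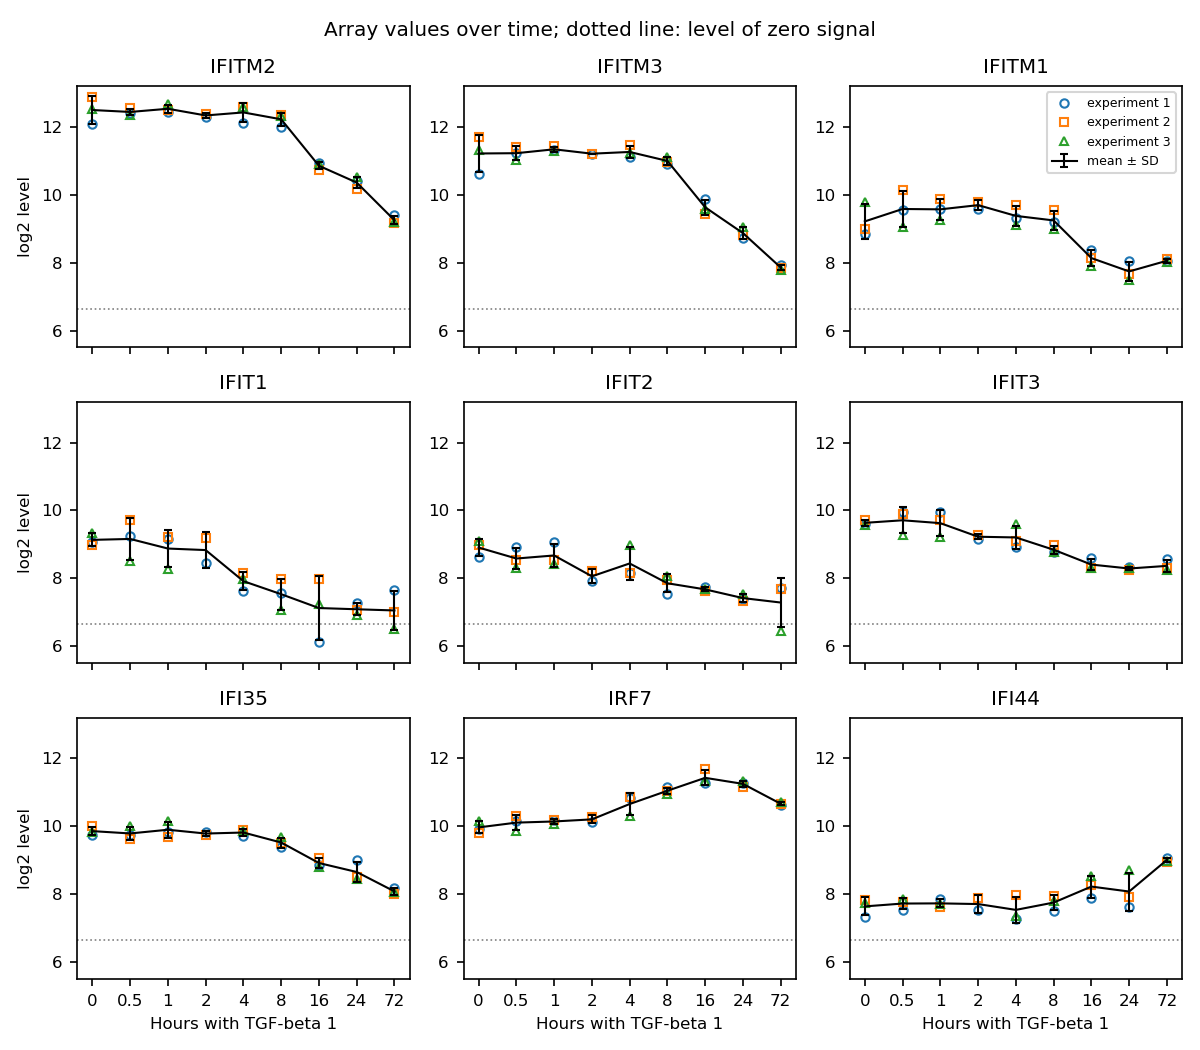
Log2 levels of 9 genes over time, 1 symbol per array by experiment, with the mean and SD of each group as a line with bars and the level of zero signal as a dotted line (the time axis is spaced by group). IFITM2, IFITM3 and IFITM1 overlap with untreated cells through 8 h and lie below them from 16 h, the IFIT genes decline earlier and level off near 24 h, IRF7 climbs from 4 h, and IFI44 is highest at 72 h.

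Of the IFIT proteins, IFIT1 binds viral RNA with foreign 5' ends and keeps it from being translated. The genes IFIT1, IFIT2, IFIT3 and IFIT5 lie in a cluster on chromosome 10. All 4 were lower than in untreated cells at every time from 8 h on. IFIT1 read 9.08, 8.97 and 9.35 in untreated cells, 7.62, 8.15 and 7.98 at 4 h, and 7.58, 7.97 and 7.06 at 8 h. At 24 h it read 7.28, 7.08 and 6.92, and at 72 h 7.64, 7.0 and 6.52, so that 1 array at 72 h lay below zero signal. At 16 h its arrays spread from 6.13 to 7.99. Its groups did not overlap with untreated cells from 4 h on. The change at 4 h was -1.22 with an adjusted p of 0.0532, and with the experiment as a block in the model it was 0.0236. At 8 h IFIT1 was 3.03-fold lower (-1.60 ± 0.39, adjusted p 0.00428) and at 72 h 4.22-fold lower (-2.08 ± 0.39, adjusted p 0.000181), a fold that the nearness to zero signal makes too small.

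IFIT3, a partner that stabilises IFIT1, read 9.61, 9.73 and 9.57 in untreated cells, 8.78, 8.97 and 8.77 at 8 h, and 8.60, 8.31 and 8.30 at 16 h. It read 8.33, 8.24 and 8.30 at 24 h and 8.56, 8.29 and 8.25 at 72 h. The arrays from 16 to 72 h lay in one narrow range, with a fall of 1.73-fold at 8 h (-0.79 ± 0.19, adjusted p 0.00361), 2.54-fold at 24 h and 2.41-fold at 72 h. IFIT2 read 8.63, 8.98 and 9.11 in untreated cells, 7.55, 7.95 and 8.07 at 8 h and 7.38, 7.32 and 7.55 at 24 h. At 72 h it read 7.71, 7.69 and 6.46, all below the untreated arrays but with the widest spread of any of its groups. Its fall was 2.81-fold at 24 h (-1.49 ± 0.28, adjusted p 0.000206). A second probe set of IFIT2 gave -0.36 at 24 h and -0.38 at 72 h and passed at neither (adjusted p 0.359 and 0.311). IFIT5 read 10.05, 10.19 and 10.27 in untreated cells, 9.67, 9.54 and 9.49 at 8 h and 9.26, 9.38 and 8.76 at 72 h, without overlap. It was 2.05-fold lower at 72 h (-1.04 ± 0.17, adjusted p 3.67e-05), and at 4 h it passed with the experiment as a block (-0.47, adjusted p 0.0347) and not without it (0.0898). The second probe sets of IFIT3 and IFIT5 fell as well, by 0.99 and 0.98 at 24 h.

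With the block, the number of the 28 genes past the threshold at 4 h was 3 (IRF7 higher, IFIT1 and IFIT5 lower) in place of 1. It was also 3 without 4 h replicate 3, and 2 without untreated replicate 1, 0.5 h replicate 2 or 3, 1 h replicate 3, 16 h replicate 1 or 2, or 72 h replicate 1. STAT2 was the added gene without untreated replicate 1 (-0.49, adjusted p 0.0291), and IFIT3 and STAT2 were added without 4 h replicate 3 (adjusted p 0.0469 and 0.0183).

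ISG15 is a ubiquitin-like protein that is attached to other proteins during the interferon response, with UBE2L6 as the conjugating enzyme and HERC5 as the main human ligase. HERC6 is a relative of that ligase. UBE2L6 read 10.15, 10.32 and 10.03 in untreated cells, 9.60, 9.24 and 8.91 at 24 h, and 9.53, 9.38 and 8.96 at 72 h, and the groups did not overlap from 4 h on. It fell by 0.91 ± 0.19 at 24 h (1.88-fold, adjusted p 0.000738). Its call at 16 h (-0.61, adjusted p 0.0174) was lost without untreated replicate 2 (0.0684) and without 16 h replicate 3 (0.142), and at 8 h (-0.52, adjusted p 0.0590) it passed with the block (0.0366). HERC6 read 9.52, 9.06 and 9.36 in untreated cells and between 8.89 and 9.46 from 0.5 to 8 h. It then read 8.73, 8.96 and 8.50 at 16 h, 8.10, 8.27 and 7.77 at 24 h, and 8.15, 7.77 and 7.90 at 72 h. From 16 h on no array overlapped with the untreated ones, and the fall was 2.40-fold at 24 h (-1.26 ± 0.16, adjusted p 1.42e-06) and 2.58-fold at 72 h.

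A second probe set of HERC6 did not pass (-0.42 at 24 h, adjusted p 0.115, and 0.26 at 72 h, adjusted p 0.328), and with the mean of its probe sets the calls at 16 and 72 h were lost (adjusted p 0.226 and 0.0699). ISG15 itself read 9.49, 9.34 and 9.89 in untreated cells and 9.0, 9.42 and 9.03 at 72 h, which overlap. Its change at 72 h was -0.42 ± 0.22 (adjusted p 0.148). Over the whole course it passed the F test only with the block (adjusted p 0.0310 with it, 0.148 without). HERC5 was below the array median on every array, from 6.32 to 7.85, and was not tested.

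IFI35, which forms a complex with the interferon-induced protein NMI, was lower from 16 h on and lowest at 72 h. It read 9.75, 9.99 and 9.83 in untreated cells and between 9.62 and 10.16 on the 11 arrays from 0.5 to 4 h. The arrays then read 8.86, 9.07 and 8.81 at 16 h, 9.01, 8.52 and 8.43 at 24 h, and 8.19, 7.99 and 8.06 at 72 h. From 8 h on every array was below every untreated one. The fall was 1.92-fold at 16 h (-0.94 ± 0.15, adjusted p 2.80e-05), 2.30-fold at 24 h and 3.42-fold at 72 h (-1.78 ± 0.15, adjusted p 2.77e-09).

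ISG20, an exonuclease that degrades single-stranded RNA, read 10.45, 10.84 and 10.94 in untreated cells and between 10.22 and 11.18 from 0.5 to 8 h. At 24 h its arrays read 10.97, 10.36 and 9.52, spread over more than the untreated range. At 72 h they read 9.30, 9.45 and 9.29, all below the untreated arrays. It had a change of -0.46 ± 0.28 at 24 h (adjusted p 0.230) and was 2.63-fold lower at 72 h (-1.40 ± 0.28, adjusted p 0.000429). Without 24 h replicate 1, the highest of the 3, its change at 24 h was -0.80 (adjusted p 0.0350).

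The OAS enzymes make 2'-5' oligoadenylates, which activate the nuclease RNase L, and OAS1, OAS2 and OAS3 are neighbours on chromosome 12. OAS1 took a course of its own. It read 11.27, 11.10 and 11.67 in untreated cells, 11.79, 12.06 and 12.02 at 8 h and 11.87, 11.98 and 12.79 at 16 h, above all untreated arrays at both times. At 24 h it read 10.97, 11.21 and 12.74, and at 72 h 9.98, 10.17 and 10.96, now below all untreated arrays. The change at 16 h was 0.86 ± 0.34 (adjusted p 0.0549, and 0.0326 with the block). At 72 h the fall of 0.98 ± 0.34 passed (adjusted p 0.0271). It was lost without untreated replicate 3 (0.107), 72 h replicate 1 (0.122) or 72 h replicate 2 (0.0913), and a second probe set of OAS1 did not pass (-0.59, adjusted p 0.212). Between 24 and 72 h OAS1 fell by 1.26 ± 0.34 (adjusted p 0.0220), and without 24 h replicate 3, the highest of its group, the adjusted p was 0.132.

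OAS3 read 10.99, 10.16 and 10.77 in untreated cells and 9.88, 9.83 and 9.62 at 72 h, without overlap, a fall of 0.86 ± 0.26 (adjusted p 0.0124, 0.0709 without untreated replicate 1 and 0.413 with the mean of its probe sets). At 24 h its change was -0.67 (adjusted p 0.0519, 0.0129 with the block). OAS2, close to the array median, and OASL, a relative without that enzyme activity, passed at no time. Their changes against untreated cells ran from -0.44 to -0.15 for OAS2 and from -0.07 to 0.46 for OASL. A second probe set of OASL gave -0.50 at 24 h and -0.25 at 72 h and passed at neither (adjusted p 0.0717 and 0.383). The dynamin-like GTPases MX1 and MX2 trap viral nucleocapsids, MX1 for influenza virus and MX2 for HIV. MX2 read 7.95, 8.33 and 8.15 in untreated cells and 7.04, 7.52 and 7.47 at 24 h. It fell by 0.80 ± 0.19 at 24 h (1.75-fold, adjusted p 0.00207). The 72 h arrays, 7.48, 7.88 and 7.68, were also below the untreated ones (-0.46, adjusted p 0.0601). Without the 3 arrays marked r the 24 h call of MX2 was lost (adjusted p 0.0968). MX1 had changes from -0.37 to -0.04, none of which passed.

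TRIM22, a ubiquitin ligase that restricts several viruses, read 8.24, 9.02 and 8.64 in untreated cells, 7.79, 7.83 and 8.38 at 24 h and 8.19, 7.69 and 7.96 at 72 h. Only the 72 h arrays lay wholly below the untreated ones. The fall at 72 h was 0.69 ± 0.25 (adjusted p 0.0312). It was lost without untreated replicate 2 (0.162) or 3 (0.0656) and without 72 h replicate 2 (0.133) or 3 (0.0656). At 24 h the change was -0.63 (adjusted p 0.0503, 0.0170 with the block). PARP9, which promotes interferon signalling with DTX3L, read 9.14, 9.55 and 9.51 in untreated cells and 8.98, 9.07 and 9.11 at 24 h. That fall of 0.35 ± 0.14 passed narrowly (adjusted p 0.0484) and was lost without any 1 of most arrays, for instance untreated replicate 2 (0.178). A second probe set of PARP9 gave 0.04 at 24 h (adjusted p 0.855).

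IFI44 ran against most of the set. It read 7.34, 7.83 and 7.75 in untreated cells and between 7.27 and 7.99 from 0.5 to 8 h, near the array median. It read 7.88, 8.26 and 8.53 at 16 h, 7.61, 7.92 and 8.70 at 24 h, and 9.08, 8.96 and 8.99 at 72 h. The 72 h arrays were above all others and close to each other, whereas those at 24 h overlapped with untreated cells. IFI44 rose 2.58-fold by 72 h (1.37 ± 0.24, adjusted p 8.23e-05), and at 16 h (0.58, adjusted p 0.0646) it passed with the block (0.0325), without 16 h replicate 1 (0.0345), without 24 h replicate 1 or 3 (0.0476 and 0.0307) and without the 3 arrays marked r (0.0372). Its neighbour and relative IFI44L stayed between 6.44 and 7.41 on all 26 arrays, below the array median, and was not tested. BST2, the tether that holds budding virions at the cell surface, ranged from 5.64 to 8.04 and had a group mean of 7.10 before treatment, and its means of 6.0 at 24 h and 6.04 at 72 h lay below zero signal. XAF1, an antagonist of apoptosis inhibitors, ranged from 6.46 to 7.66.

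IFIH1, the cytoplasmic sensor of long double-stranded RNA also called MDA5, read 9.41, 9.74 and 9.77 in untreated cells and between 9.06 and 10.03 on the 17 arrays from 0.5 to 16 h. It then read 8.93, 8.72 and 8.75 at 24 h and 8.40, 8.12 and 8.31 at 72 h. Both late groups lay below all untreated arrays. It was 1.79-fold lower at 24 h (-0.84 ± 0.16, adjusted p 0.000237) and 2.58-fold lower at 72 h (-1.37 ± 0.16, adjusted p 4.51e-07). With the mean of its probe sets the 24 h change was -0.33 (adjusted p 0.0547).

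Among the transcription factors, IRF7, which drives interferon genes once phosphorylated, passed at 4 h. In the fit of all arrays without the block it passed before the others. IRF7 was higher than in untreated cells at every time from then on. It read 9.92, 9.82 and 10.16 in untreated cells and between 9.87 and 10.29 on the 8 arrays from 0.5 to 2 h. It read 10.82, 10.85 and 10.29 at 4 h, 11.15, 11.03 and 10.96 at 8 h, and 11.27, 11.68 and 11.33 at 16 h. At 24 h it read 11.27, 11.14 and 11.33, and at 72 h it was down to 10.64, 10.64 and 10.71, still above all untreated arrays. The rise was 1.61-fold at 4 h (0.69 ± 0.14, adjusted p 0.00252), 2.75-fold at 16 h (1.46 ± 0.14, adjusted p 5.00e-08) and 1.62-fold at 72 h (0.70 ± 0.14, adjusted p 0.000429). Fitted on the 4 h and untreated arrays alone, the 4 h rise of IRF7 had an adjusted p of 0.0743, whereas IFIT1 passed as lower there (0.00635). IRF7 fell from 24 to 72 h by 0.59 ± 0.14 (adjusted p 0.0114).

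IRF1, a transcription factor induced by interferon gamma, read 9.68, 9.46 and 9.66 in untreated cells and 9.05, 9.22 and 8.78 at 72 h, a fall of 0.58 ± 0.16 (adjusted p 0.00549). Its arrays lay below the untreated ones from 8 h on. STAT2 and IRF9, parts of the activating complex, passed at no time against untreated cells. STAT2 read 10.19, 10.76 and 10.35 in untreated cells, 9.86, 9.99 and 10.33 at 4 h and 10.55, 10.49 and 10.71 at 24 h. It passed the F test (adjusted p 0.00512) and was higher at 24 h than at 4 h by 0.52 ± 0.13 (adjusted p 0.00544). With the mean of its 3 probe sets neither call held (adjusted p 0.287 for the F test and 0.460 for 24 h against 4 h). IRF9 stayed between 9.40 and 10.55 on all arrays, with changes from -0.27 to 0.03.

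The comparison of 24 h with 4 h sets the late against the early response and does not use the mean of the untreated arrays. In it 2 of the 28 genes were higher and 10 lower, where 23.2 percent of all genes passed, 9 percent higher and 14.2 percent lower. The higher genes were IRF7 (0.59 ± 0.14) and STAT2. The lower genes included IFITM3 (-2.39 ± 0.18), IFITM2 (-2.06 ± 0.16), IFITM1 (-1.64 ± 0.25), IFI35 (-1.16 ± 0.15) and HERC6 (-1.07 ± 0.16). IFIT2, IFIT3, TRIM22, UBE2L6 and IFIH1 fell by 0.58 to 1.02. IFIT1, already low at 4 h, was not among them. With the mean of probe sets HERC6 and IFIH1 did not pass here (-0.30 and -0.20, adjusted p 0.163 and 0.316). IFIT2 lost its call without 4 h replicate 3 (adjusted p 0.0834), UBE2L6 without 24 h replicate 3 (0.0960) or without 4 h replicate 2 or 3 (0.0529 and 0.0594), and TRIM22 without 4 h replicate 3 (0.106) or 24 h replicate 1 or 2 (0.0958 and 0.0806). With the block IFIT5 and OASL passed as well, with changes of -0.43 and -0.44 (adjusted p 0.0307 and 0.0390). Without the 3 arrays marked r, 0 genes were higher and 6 lower.

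From 24 to 72 h 1 gene rose and 7 fell, where 9.12 percent of all genes passed, 4.67 percent higher and 4.45 percent lower. IFI44 rose by 0.93 ± 0.24 (adjusted p 0.0166). OAS1, IFITM2, IFITM3, ISG20, IRF7, IFI35 and IFIH1 fell, by 0.53 (IFIH1) to 1.26 (OAS1). With 1 array fewer the number past the threshold ran from 3, without 72 h replicate 2, to 8. It was 4 without 24 h replicate 1 or 72 h replicate 1, and 5 without 24 h replicate 2 or 72 h replicate 3. Without the 3 arrays marked r it was 0. IFITM2, IFITM3 and IRF7 kept the call without any 1 array.

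The experiments differed for some of the genes. Over 0.5 to 8 h, 12 of the 28 had their highest median in experiment 2 and their lowest in experiment 3. The share of all tested genes with this order was not computed, so the count cannot be read as particular to these genes. Experiment 3 has no array at 2 h, so its medians cover 4 arrays and those of the others 5. IFI27, an interferon-induced mitochondrial protein, was the clearest case and spread from 6.66 to 9.04. It read 8.86, 9.02, 8.77, 9.04 and 9.04 in experiment 2 from 0.5 to 8 h and 7.29, 7.38, 7.49 and 7.11 in experiment 3. In untreated cells the order was the reverse, with 7.20 in experiment 2 and 8.68 in experiment 3. IFI6, an inhibitor of apoptosis and of flavivirus replication, read 10.21, 10.06, 10.29, 10.25 and 10.08 in experiment 2 and 9.32, 8.88, 9.21 and 8.99 in experiment 3, against 8.43 and 9.57 in untreated cells.

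**Figure D4:**
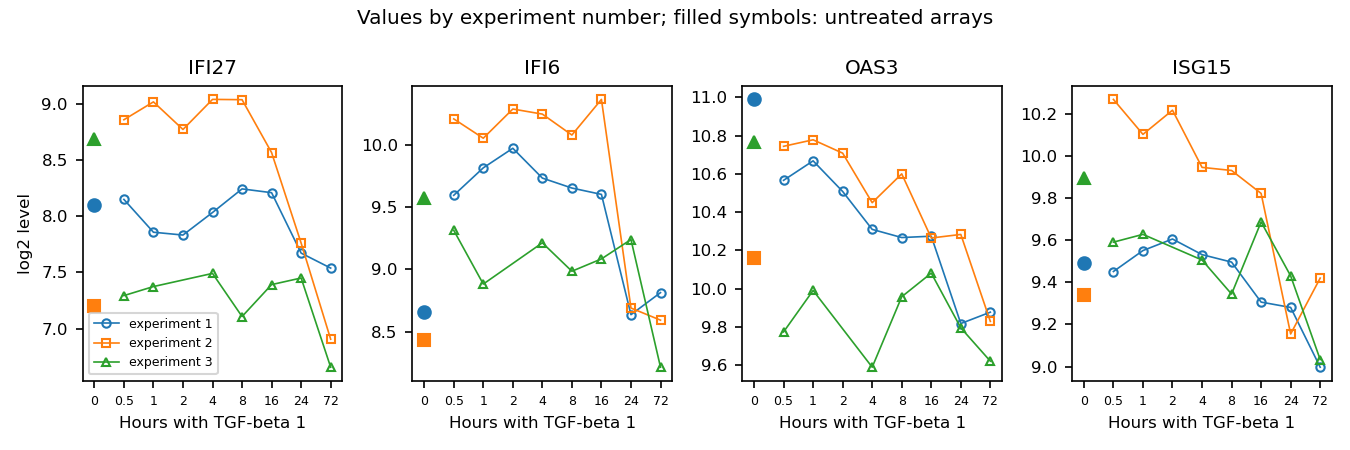
Log2 levels of IFI27, IFI6, OAS3 and ISG15 by experiment, with untreated arrays as filled symbols and each panel on its own axis. In IFI27 and IFI6 experiment 2 is highest and experiment 3 lowest from 0.5 to 8 h, whereas among the untreated arrays experiment 3 is highest and experiment 2 lowest.

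The array numbers in the deposited header rise with the experiment number at each treated time, as 2, 10 and 18 at 0.5 h. For untreated replicates 1, 2 and 3 they are 1, 17 and 9. The 72 h arrays are numbered 25, 26 and 27, after all other arrays. Whether they were handled apart from the others is not given, and such a difference could not be told apart from time. Whether untreated replicates 2 and 3 were exchanged cannot be settled from the labels, and the labels were kept. With all arrays and no block, IFI6 had changes of 0.69 to 1.24 from 0.5 to 16 h that did not pass at any of these times, although it passed the F test (adjusted p 0.0193, 0.0594 without 72 h replicate 3). With the block as labelled IFI6 passed at no single time. With untreated replicates 2 and 3 exchanged in the block, IFI6 passed at 2, 4, 8 and 16 h (adjusted p 0.0292, 0.0231, 0.0384 and 0.0121) and IFI27 at 72 h (-0.96, adjusted p 0.00681, against 0.155 without a block). That fit also called, among others, ISG15 at 72 h (0.0186), OAS3 at 4 and 16 h (0.0200 and 0.0234) and IRF1 at 16 h (0.0395).

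The authors' deposited table holds their own selection, made at p under 0.001 with more than 2-fold change, and holds fewer of the genes. In the authors' deposited table none of the genes was selected through 4 h, IRF7 (higher) and IFIT1 (lower) were selected at 8 h, and 1 higher and 4 lower at 16 h. At 24 h the authors' deposited table selects IRF7 as higher and 8 genes as lower, and at 72 h IFI44 as higher and 11 as lower.

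Genes that sit upstream of the set, or beside it, were followed from 4 lists. Among 18 interferon ligands, receptors and JAK-STAT components, 13 were tested. Of these 2 rose and 3 fell at 24 h, and 2 rose and 4 fell at 72 h, with medians of -0.05 and -0.13. In each of the 4 lists these counts stand beside 35.2 percent of all genes past the threshold at 24 h and 38.3 percent at 72 h, and they are given as a description. IFNAR2, a chain of the type I interferon receptor, was 1.40-fold lower at 24 h and 2.76-fold lower at 72 h (-1.46 ± 0.16, adjusted p 2.54e-07). The other chain, IFNAR1, had changes of -0.08 and -0.13 that did not pass (adjusted p 0.716 and 0.500). JAK1 rose by 0.66 ± 0.11 at 72 h, and IFNE, an epithelial type I interferon, rose 2.04-fold at 24 h and 2.33-fold at 72 h. IFNB1 was not tested. Its group means ran from 5.85 to 6.42, all below zero signal.

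**Figure D5:**
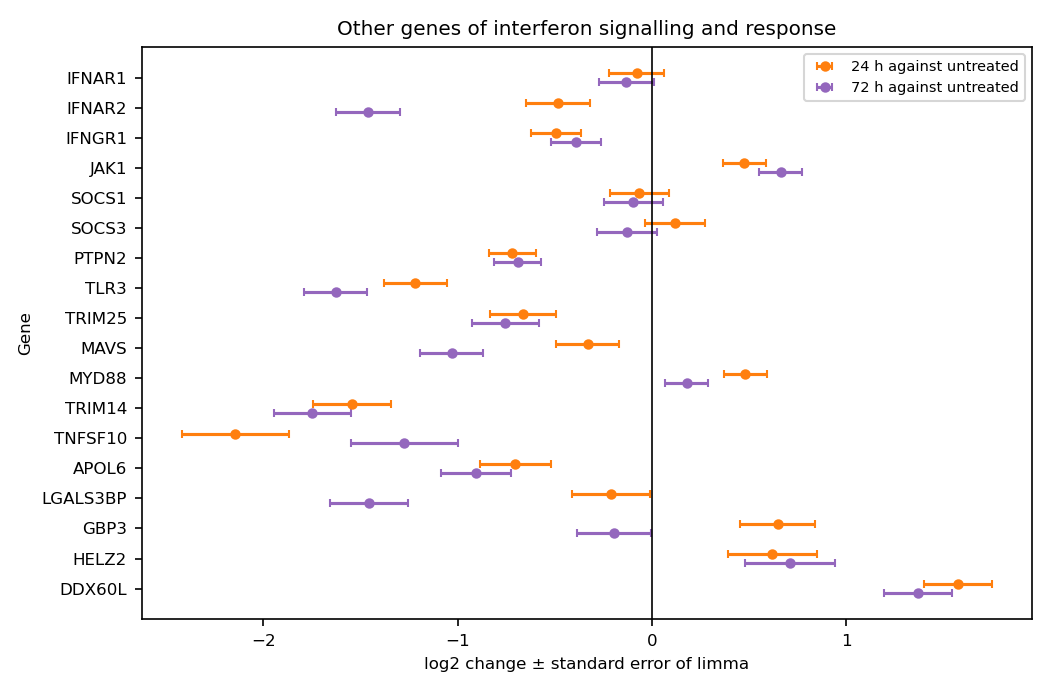
Log2 change ± standard error of limma at 24 and 72 h against untreated cells (n = 3 arrays per group) for 18 further genes of interferon signalling and response. At 72 h IFNAR2, TLR3, MAVS, TRIM14 and TNFSF10 lie well left of 0, DDX60L and JAK1 lie right of it, and IFNAR1, SOCS1 and SOCS3 lie near 0.

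Of 16 sensors and inducers of interferon 14 were tested, of which 2 rose and 2 fell at 24 h, and 2 rose and 3 fell at 72 h. TLR3, the endosomal receptor for double-stranded RNA, fell 2.33-fold at 24 h and 3.09-fold at 72 h (-1.63 ± 0.16, adjusted p 4.33e-08). MAVS, the mitochondrial adaptor of the cytoplasmic RNA sensors, was 2.04-fold lower at 72 h (adjusted p 2.28e-05). TICAM1, the adaptor of TLR3, rose by 0.58 and 0.81. Of 9 negative regulators of the pathway PTPN2, a phosphatase that acts on JAK1, fell by 0.72 and 0.69, and PIAS1 fell by 0.65 at 72 h. SOCS1 and SOCS3, inhibitors of the JAK kinases, did not pass, with changes of -0.07 and -0.10 for SOCS1 and 0.12 and -0.13 for SOCS3. None of the 9 passed as higher at 24 or 72 h, where 15.2 and 18.3 percent of all genes did.

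Of a further 51 interferon-stimulated genes outside the set of 33, 43 were tested. At 24 h 4 rose and 8 fell and at 72 h 4 rose and 9 fell, 12 and 13 of 43, which is no larger a share than the 35.2 and 38.3 percent of all genes, with a median of -0.11 at both times. Both this list and the set of 33 were chosen with earlier results of these data known, and whether they differ was not tested. The death ligand TNFSF10 fell by 2.14 ± 0.27 at 24 h (adjusted p 1.67e-06) and by 1.27 at 72 h. TRIM14, an adaptor of MAVS signalling, fell by 1.54 ± 0.20 and 1.75 ± 0.20. DDX60L, a relative of RNA helicases, rose by 1.57 ± 0.17 at 24 h and 1.37 at 72 h.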

How the data were processed

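The authors deposited log10 values of 54675 probe sets on 26 arrays, per the file headers log10(max(x+50,0)+50) of trimmed means of probe differences, quantile-normalized between arrays. They were converted to log2. The deposited table also gives the authors' p-values from a model with experiment and time, unadjusted, and their fold changes as ratios. Deposited quality values included the count of probe sets detected, 28834 to 32875 per array, and the actin ratio. Each gene took the probe set with the highest mean, not ending in _x_at where another existed.

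The fit used limma 3.58.1 under R 4.3.3 (lmFit, eBayes with an intensity trend, 17 residual degrees of freedom), two-sided, on all arrays and all 14771 genes. The fit was also run on simulated data built from the means and spreads of these genes. The outcome of that run is not given here. Whatever the arrays of a group share is not in the p-values, and the number of arrays limits precision. The members and lists were chosen with earlier results of these data known. Members past the F test, at most 12, and up to 3 more per comparison are given by array, with up to 3 genes per further list. Values of a few list genes are not reported here. IRF1 and OAS3 values, and the genes plotted beyond that rule, were chosen after their values were seen.

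The labels number arrays by experiment, which pairs them. Deviations from group means of arrays of the same experiment correlated at a median r of 0.177 (77 pairs) without the untreated arrays and 0.0328 (23 pairs) with one. For arrays of different experiments the medians were -0.0952 (154 pairs) without the untreated arrays and -0.0161 (46 pairs) with one. With untreated replicates 2 and 3 exchanged, the medians with an untreated array were 0.193 for the same experiment and -0.0592 for different ones. The block is given where it changed a call. Alternatives covered filters, normalization, offset, variance model, probe sets, groups fitted, threshold and each array left out.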

Additional observations from a re-analysis of the deposited data

How the results depend on the processing

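Of 69 changes past the threshold (8 times and both later comparisons), 41 passed with the same sign under every alternative tried for them. The stricter threshold, an adjusted p under 0.01, was left out of this tally. Single other probe sets were tried only at 24 and 72 h against untreated cells. Of the 69 changes 2 reversed, both on another probe set of the gene: PARP9 at 24 h (0.0428) and HERC6 at 72 h (0.2633). For all counts not given here the alternatives stayed within 1.5 times. With the experiment as a replicate block the count at 4 h was 3 in place of 1, and the block changed no call beyond those named above. With untreated replicates 2 and 3 exchanged in the block, an alternative chosen after the data were seen, the count was 1 at 2 h (0 before) and 5 at 4 h. With a filter on the mean, or with a further offset of 50, the count at 4 h was 2. Without the 3 arrays marked r, also chosen after the data were seen, 6 passed between 4 and 24 h in place of 12, and 0 between 24 and 72 h in place of 8, where 1 array is left at 24 h and is assumed to vary like the other groups. The latter count was 5 with the mean of probe sets, 5 on only the groups compared and 2 at an adjusted p under 0.01. Leaving out 1 array gave 0 to 0 at 0.5, 1 and 2 h, 1 to 3 at 4 h, 5 to 7 at 8 h, 10 to 13 at 16 h, 13 to 16 at 24 h, 16 to 19 at 72 h, 9 to 13 between 4 and 24 h, 3 to 8 between 24 and 72 h, and 18 to 22 for the F test. At 4 h the high value came without 4 h replicate 3. The cause of these shifts was not tested. Genes near zero signal, such as IFIT1 at late times and the 4 untested genes, are limited by the offset and the floor.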
